A study of Homo sapiens with 12 samples.

Results

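The transforming growth factor β (TGF-β), bone morphogenetic protein (BMP) and activin ligands examined here were TGFB1, TGFB2, TGFB3, BMP2, BMP4, BMP6, BMP7, GDF11, INHBA and INHBB. They were taken by symbol from a table of gene expression, in which they make up 10 of 18815 rows. RNA was sequenced at 48 h after transfection from 3 established human lines of intrahepatic cholangiocarcinoma (ICC), which were HuH-28, RBE and also SSP-25. Cells received a control siRNA with a scrambled sequence, or siRNA directed at LKB1, the serine/threonine kinase made from STK11. The siRNA dose was 45 pmol per well in all groups. There were 6 groups, with 2 libraries in each. The paper describes the libraries numbered 1 and 2 as the first and the second test, without stating whether these were separate cultures or whether the lines and siRNAs of a test were handled together. The p-values therefore measure the spread between these libraries, which may be technical. Both arms were transfected, and a single label, LKB1 siRNA, covers all knockdown libraries, so effects through LKB1 and effects of the siRNA on other mRNAs cannot be told apart. Each line is 1 tumor-derived culture, so the 3 lines stand for themselves and not for ICC tumors.

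Values are the authors' normalized reads per kilobase of transcript, called signal here, which is divided by length, so levels can be set side by side between genes. The signal of all genes summed to between 9918899 and 11748262 in a library, and with no read counts in the table the depth is unknown. STK11 signal was lower in both LKB1 siRNA libraries than in both control siRNA libraries of every line, and its log2 fold change was -1.59 (HuH-28), -1.68 (RBE) and -2.77 (SSP-25). The biliary keratin KRT7 was present in every library, at 2406 or more. KRT19 and EPCAM, further biliary epithelial markers, were at 17.3 or less and 1.315 or less in HuH-28, against at least 916 and 81.7 in the other lines, so HuH-28 had little of these defining markers of its labelled cell type. The 5 fibroblast markers in the table (PDGFRB, DCN, LUM, COL1A1 and THY1) summed to 23050 to 30080 in HuH-28, whereas RBE had 67.4 to 136.8 and SSP-25 had 6792 to 11880. In SSP-25 nearly all of that sum was COL1A1. The 6 hepatocyte markers summed to 1144 to 1593 in RBE, 145.9 to 195.5 in HuH-28 and 8.75 to 17.6 in SSP-25, nearly all of it SERPINA1 in RBE and HuH-28, while albumin did not exceed 1.335 in any library. The 4 leukocyte markers summed to 724.8 to 1967, nearly all of it CD68, while PTPRC did not exceed 6.59 and CD3E was listed at 0 in every library.

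TGF-β superfamily ligands are secreted dimers that bring type I and type II receptor kinases together, and the receptors then phosphorylate SMAD proteins, which enter the nucleus with SMAD4. TGF-βs and activins act mainly through SMAD2 and SMAD3, and BMPs through SMAD1, SMAD5 and SMAD9. In the biliary tract the TGF-βs are known for growth arrest of epithelium, and for the dense fibrous stroma of ICC. INHBA and INHBB encode the βA and βB subunits, which pair to form activins, or pair with the α subunit to form inhibins.

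The 3′ UTRs of the ligands were searched for 3 words of 7 bases, because earlier results of these data had tied these words to the size of the LKB1 siRNA effect across genes. GCAGTAC and CAGTACA overlap by 6 bases, and GAAGGAA is unrelated to them in sequence. Only the mRNA strand of the longest annotated 3′ UTR of each gene in GENCODE v29 (GRCh38) was read. The sites found are shown in 30 bases of mRNA-strand sequence, written 5′ to 3′ with T for U, and the capitals mark the word.
TGFB2, chr1:218443840-218443869, forward strand: tgtgttaatcaGCAGTACaatttgatcgtt
GDF11 first site, chr12:55752163-55752192, forward strand: tttccttggtgGAAGGAAaggaacagagaa
GDF11 second site, chr12:55755537-55755566, forward strand: aacggggagagGAAGGAAgggtactaagat
INHBA, chr7:41689458-41689487, reverse strand: atgaaacagatGAAGGAAgatgtggaaaaa
TGFB3, chr14:75958829-75958858, reverse strand: ccctaaagggaGAAGGAAgggcagagaatg

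GCAGTAC occurred in 1 of the 10 ligands, TGFB2, whose 3′ UTR is 3257 bases long, and there it overlaps the only CAGTACA. In all, 744 of 14933 tested genes with a 3′ UTR (5.0%) held GCAGTAC and 1296 (8.7%) held CAGTACA. The median log2 fold change over the 3 lines was 0.27 among genes with GCAGTAC and 0.02 among genes without it. For CAGTACA these medians were 0.13 and 0.02. GAAGGAA occurred in GDF11, INHBA and TGFB3, with 3′ UTRs of 7396, 4536 and 985 bases, and in 3122 genes (20.9%). Its median log2 fold change was -0.01 with the word and 0.04 without it. The words were picked with results of these same data known, so the medians restate that choice and test nothing. The length of the 3′ UTR was not taken into account. TGFB1, BMP2, BMP4, BMP6, BMP7 and INHBB held none of the 3 words. A match describes these letters in this window, and no match says only that they are absent from it.

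The main question was how LKB1 siRNA changed these ligand mRNAs within each line. Averaged over the 3 lines, 8 of the 10 ligands were higher with LKB1 siRNA at an adjusted p under 0.05 and 0 were lower, where 27.3% of the 16146 genes tested were higher and 25.2% lower. The 8 were GDF11, INHBA, BMP2, INHBB, TGFB2, BMP4, TGFB1 and BMP6. TGFB3 and BMP7 did not pass on average. In RBE 8 ligands were higher and 0 lower, against 22.1% and 18.6% of all genes. In SSP-25 the counts were 6 and 0, against 21.1% of all genes in each direction. In HuH-28 they were 5 and 1, against 14.3% higher and 15.5% lower, and the fall, in TGFB3, did not pass when any of 3 of the 4 HuH-28 libraries was left out. With each line fitted alone, 3 instead of 5 ligands were higher in HuH-28.

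The median log2 fold change of the 10 ligands was 0.23 for HuH-28, 0.91 for RBE and 0.68 for SSP-25, and between 0.01 and 0.02 over all genes. Ligands with a log2 fold change above 1 that passed numbered 2 in HuH-28 (2.56% of all genes), 3 in RBE (5.55%), 5 in SSP-25 (6.11%) and 3 on average (3.13%). GDF11 and TGFB2 were the 2 ligands that passed as higher in each of the 3 lines, as did 6.94% of all genes. In 7 ligands (TGFB1, TGFB2, BMP4, BMP6, GDF11, INHBA and INHBB) both LKB1 siRNA libraries lay above both control siRNA libraries in every line, as in 13.6% of all genes. Those 7 had the smallest p that an exact permutation of labels within lines can give (two-sided p = 0.0093), BMP2 had p = 0.019, TGFB3 p = 0.56 and BMP7 p = 0.83. Within 1 line, 2 libraries against 2 cannot go below p = 0.33 in an exact permutation test, so the calls by line rest on the spread shared by all groups in limma.

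**Figure D1:**
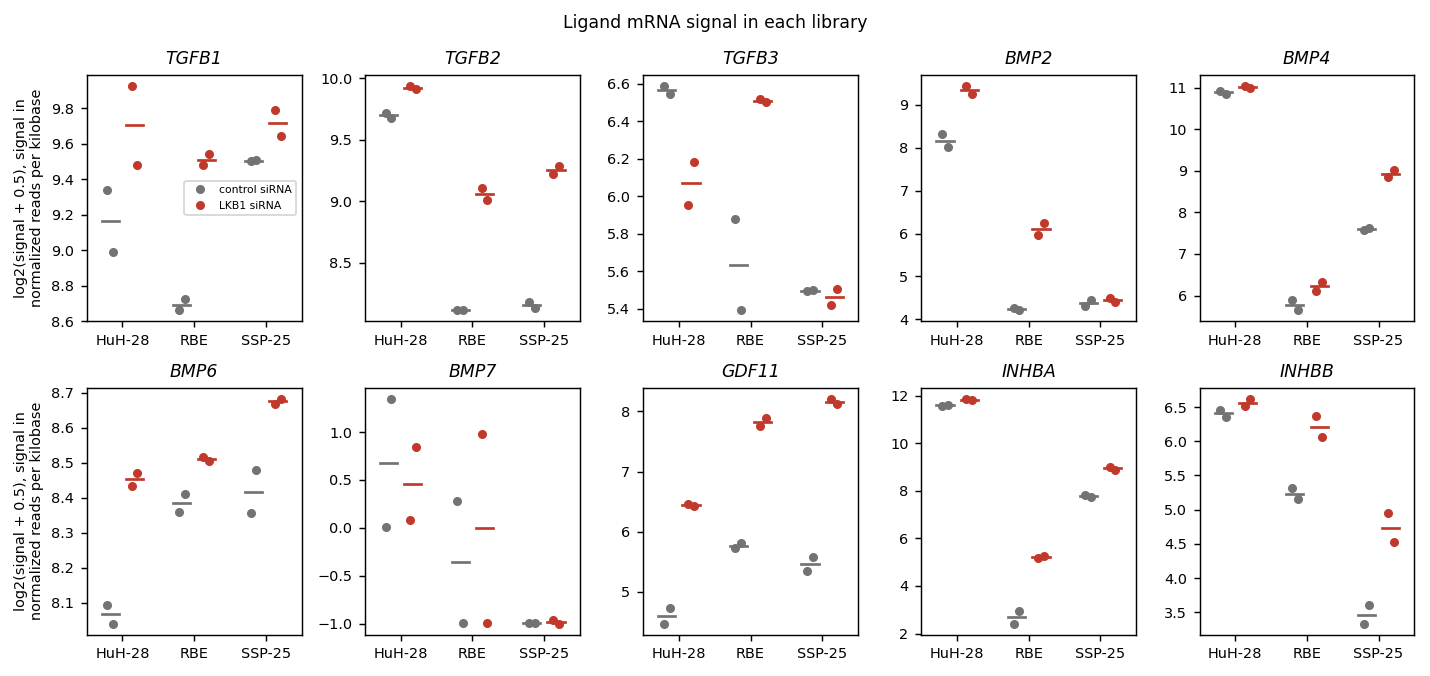
Signal of each ligand in each library, as log2(signal + 0.5) with signal in normalized reads per kilobase on the y axis and cell line on the x axis. Grey points are control siRNA libraries, red points LKB1 siRNA libraries and bars the means of 2 libraries, and each panel has its own y range. Red lies above grey in all 3 lines for 7 of the ligands, TGFB3 moves in opposite directions in HuH-28 and RBE, and BMP7 is near the floor of the scale.

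GDF11, a ligand close to myostatin that signals through activin receptors and SMAD2 and SMAD3, had the largest average rise of the 10. In HuH-28 the control siRNA libraries gave a signal of 21.7 and 26.0 and the LKB1 siRNA libraries 87.5 and 85.1. The RBE signals were 52.4 and 55.4 with control siRNA and 216.6 and 235.5 with LKB1 siRNA, and those of SSP-25 were 40.4 and 47.2 against 294.6 and 277.8. The groups were far apart in every line, and the lowest LKB1 siRNA library of any line exceeded the highest control siRNA library of any line. The log2 fold change was 1.84 in HuH-28 (SE 0.11, adjusted p = 4.47e-06). RBE had 2.06 (adjusted p = 8.52e-07) and SSP-25 2.70 (adjusted p = 1.8e-07), and the change differed between lines (adjusted p = 0.00853, limma's F test). These are fold changes of 3.58, 4.16 and 6.49. GDF11 spans chr12:55743280-55757278, forward strand.

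The activin subunits rose in RBE and SSP-25 and did not pass in HuH-28. INHBA signal in RBE was 4.85 and 7.26 with control siRNA and 35.6 and 38.2 with LKB1 siRNA, a log2 fold change of 2.54 (SE 0.14, adjusted p = 7.47e-07). In SSP-25 it was 227.3 and 215.3 against 508.6 and 475.6, a log2 fold change of 1.15 (adjusted p = 0.000106). HuH-28 was already high with control siRNA, at 3056 and 3164, and 3713 and 3603 with LKB1 siRNA. There the groups did not overlap but the log2 fold change of 0.23 did not pass (95% interval -0.07 to 0.54, adjusted p = 0.238), although it passed without either RBE control siRNA library (adjusted p = 0.0231 and 0.0235). The effect of LKB1 siRNA on INHBA differed between lines (adjusted p = 0.000179, limma's F test).

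INHBB, the βB subunit, was expressed at lower levels. Its signal was 39.3 and 35.2 with control siRNA and 82.0 and 66.2 with LKB1 siRNA in RBE, and 9.60 and 11.6 against 30.4 and 22.6 in SSP-25. The log2 fold changes were 0.98 (SE 0.17, adjusted p = 0.00133) and 1.27 (adjusted p = 0.000249). In HuH-28 the libraries gave 87.8 and 81.6 against 90.6 and 97.6, groups that barely separated, with a log2 fold change of 0.15 (95% interval -0.23 to 0.54, adjusted p = 0.564). The effect differed between lines (adjusted p = 0.0174), a call that was lost without the first HuH-28 control siRNA library (adjusted p = 0.0528).

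Among the TGF-β isoforms, TGFB2 had the most uniform libraries. In RBE its signal was 276.8 and 277.7 with control siRNA and 552 and 514.4 with LKB1 siRNA. SSP-25 libraries gave 289.8 and 280.7 against 596.6 and 624.9. HuH-28 had the highest TGFB2 signal and the smallest change, from 842.1 and 819.6 to 980.3 and 961.2. The log2 fold change was 0.22 in HuH-28 (SE 0.05, adjusted p = 0.00871). RBE had 0.94 (adjusted p = 8.17e-07) and SSP-25 1.10 (adjusted p = 2.71e-07), and the change differed between lines (adjusted p = 0.000137). The HuH-28 rise did not pass when that line was fitted alone (adjusted p = 0.097). TGFB2 spans chr1:218346235-218444619, forward strand, and is the ligand whose 3′ UTR holds GCAGTAC.

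TGFB1 encodes the isoform best known from platelets and immune cells. In RBE its signal went from 404.4 and 422.6 to 712.3 and 746, a log2 fold change of 0.82 (SE 0.14, adjusted p = 0.00117). In HuH-28 it went from 648 and 507.2 to 972.9 and 714, the most widely spread libraries of any line, with a log2 fold change of 0.54 (adjusted p = 0.0165) that did not pass without the second control siRNA library (0.11) or the first LKB1 siRNA library (0.0963). In SSP-25 the signals were 723.9 and 727 against 885.6 and 799.6, a log2 fold change of 0.21 (95% interval -0.10 to 0.53, adjusted p = 0.258). With a block for the replicate number within each line, the SSP-25 rise passed (adjusted p = 0.01). The difference between lines did not pass for TGFB1 (adjusted p = 0.1), but it passed with that block (0.00308) and without the first or the second HuH-28 LKB1 siRNA library (0.0261 and 0.0245).

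TGFB3, the third isoform, was the 1 ligand that passed in opposite directions. In HuH-28 its signal fell from 95.8 and 93.0 to 61.6 and 72.1, a log2 fold change of -0.50 (SE 0.15, adjusted p = 0.0303, and between 0.0805 and 0.15 when either control siRNA library or the first LKB1 siRNA library was left out). In RBE it rose from 58.3 and 41.5 to 91.2 and 90.2, a log2 fold change of 0.88 (adjusted p = 0.00109). In SSP-25 the groups overlapped, at 44.5 and 44.7 against 42.4 and 44.9, with a log2 fold change of -0.03 (95% interval -0.37 to 0.30). The effect differed between lines (adjusted p = 0.00367, limma's F test), and the average over the lines was 0.11 (adjusted p = 0.295).

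The BMP ligands differed from each other in which line moved. BMP2, a ligand known from bone formation, rose in HuH-28 from 318.3 and 256.8 to 695.9 and 606.6. The RBE signal rose from 18.6 and 18.0 to 62.1 and 74.9. The log2 fold changes were 1.18 (SE 0.14, adjusted p = 0.000185) and 1.87 (adjusted p = 4.75e-06). In SSP-25 the groups overlapped, at 19.5 and 21.4 against 22.0 and 20.6, and the log2 fold change was 0.06 (95% interval -0.25 to 0.36) and -0.17 after quantile normalization. The effect on BMP2 differed between lines (adjusted p = 0.000569, limma's F test).

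BMP4, which is closely related to BMP2, moved most in SSP-25. There its signal was 188.9 and 195.6 with control siRNA and 458 and 515.5 with LKB1 siRNA, a log2 fold change of 1.34 (SE 0.10, adjusted p = 5.23e-06). In RBE it was 58.8 and 49.6 against 68.2 and 80.2, a log2 fold change of 0.45 (adjusted p = 0.00493). HuH-28 had the highest BMP4 signal, at 1944 and 1859 against 2117 and 2031, and a log2 fold change of 0.13 that did not pass (95% interval -0.10 to 0.35, adjusted p = 0.392). The effect differed between lines (adjusted p = 0.000778).

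BMP6, the ligand known for setting hepcidin expression in the liver, had small changes of one sign. Its signal was 272.5 and 262.8 against 345.4 and 354.2 in HuH-28, and 327.3 and 356.3 against 406.5 and 410.3 in SSP-25, with log2 fold changes of 0.39 (SE 0.06, adjusted p = 0.000693) and 0.26 (adjusted p = 0.00419). RBE libraries gave 327.9 and 340 against 365.4 and 362.9, groups that did not overlap, with a log2 fold change of 0.13 (adjusted p = 0.102). A difference between lines was not detected (adjusted p = 0.0738, and 0.0376 after quantile normalization). BMP7, which is known from kidney development, did not exceed 2.04 in any library and was at 0.0115 or less in SSP-25, so its level was too low for a fold change to be read. Across the 10 ligands the effect of LKB1 siRNA differed between lines in 7, and 28.2% of all genes passed that test.

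**Figure D2:**
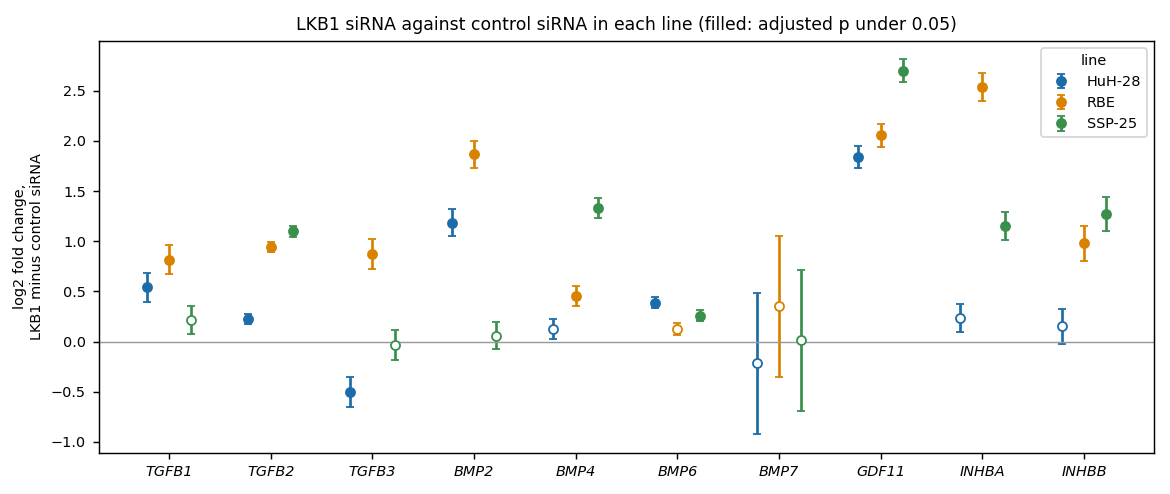
Log2 fold change of each ligand with LKB1 siRNA against control siRNA, on the y axis, by ligand on the x axis and line by color, with bars of 1 SE from limma. Filled points passed at an adjusted p under 0.05 and open points did not. GDF11 is at 1.84 or above in all 3 lines, INHBA ranges from 0.23 in HuH-28 to 2.54 in RBE, and TGFB3 in HuH-28 is the 1 filled point under 0.

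Markers of other cell types were read beside these changes. The fibroblast marker sum was higher with LKB1 siRNA in every line, at 29620 to 30080 against 23050 to 23570 in HuH-28. RBE had 133.4 to 136.8 against 67.4 to 72.3, and SSP-25 had 11460 to 11880 against 6792 to 7218. In SSP-25 the sum was nearly all COL1A1, with means of 6745 with control siRNA and 11140 with LKB1 siRNA. On average COL1A1, THY1 and PDGFRB were higher and LUM was lower, although the mean of PDGFRB fell in RBE, from 9.33 to 6.35. DCN and LUM, which define fibroblasts, did not follow the sum. In HuH-28 the mean of DCN was 2499 with control siRNA and 2214 with LKB1 siRNA and that of LUM 2374 and 1892, in SSP-25 LUM had 28.3 and 17.5, and both genes were under 0.5 in RBE. The cholangiocyte marker sum in SSP-25 also went from 7040 to 7363 with control siRNA to 10640 to 10860 with LKB1 siRNA. Their part in the ligand changes was not tested. Each library is bulk RNA of a cultured line, so a change in some of its cells and a change in all of them cannot be told apart.

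The next question was how the ligands stood in the 3 lines without knockdown. The control siRNA groups differed between lines in 9 of the 10 ligands, all but BMP7 (limma's F test, and 10 of 10 with the block within each line), and in 90.5% of all genes, so a difference at this threshold was the usual case. RBE against HuH-28 had 2 ligands higher and 7 lower (38.1% and 39.2% of all genes), SSP-25 against HuH-28 had 3 and 6 (36.8% and 38%), and SSP-25 against RBE had 3 and 2 (37.2% and 35.9%).

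Leaving out BMP7, whose level was too low for a ratio, INHBA spanned the widest range. Its mean signal with control siRNA was 3110 ± 75.9 in HuH-28, 221.3 ± 8.46 for SSP-25 and 6.06 ± 1.70 in RBE (SD, n = 2 each), so HuH-28 was 513 times RBE. BMP4 followed in the same order, with 1901 ± 59.9, 192.3 ± 4.70 and 54.2 ± 6.52, a ratio of 35.1. For both genes each step in the order passed.

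BMP2 had a mean of 287.5 ± 43.5 in HuH-28, with SSP-25 and RBE at 20.5 ± 1.35 and 18.3 ± 0.404. The SSP-25 and RBE libraries did not overlap, but their difference did not pass (log2 difference 0.15, 95% interval -0.15 to 0.46). TGFB2 had 830.9 ± 15.9 in HuH-28, with SSP-25 and RBE at 285.2 ± 6.38 and 277.2 ± 0.582. These also did not overlap and did not pass (log2 difference 0.04, 95% interval -0.07 to 0.16). TGFB3 had 94.4 ± 2.01 in HuH-28, with RBE and SSP-25 at 49.9 ± 11.9 and 44.6 ± 0.159 (log2 difference -0.14 for SSP-25 minus RBE, 95% interval -0.47 to 0.19). For TGFB3 that difference was -0.38 without the second RBE control siRNA library and then passed (adjusted p = 0.0255). In all 3 ligands HuH-28 stood above the other lines.

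INHBB fell in steps that all passed, from 84.7 ± 4.36 in HuH-28 to 37.2 ± 2.92 in RBE and 10.6 ± 1.44 in SSP-25. GDF11 had the reverse placing of HuH-28, with 53.9 ± 2.16 in RBE, 43.8 ± 4.85 in SSP-25 and 23.8 ± 3.03 in HuH-28. The step from RBE to SSP-25 passed for GDF11 (adjusted p = 0.0345), but not after quantile normalization (0.454), and leaving out 1 library took it to between 0.0193 and 0.225. BMP6 was the most even ligand, with 341.8 ± 20.5 in SSP-25, 334.0 ± 8.53 in RBE and 267.7 ± 6.86 in HuH-28, and SSP-25 and RBE did not differ beyond their spread (log2 difference 0.03, 95% interval -0.09 to 0.16).

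TGFB1 was also even, at 725.5 ± 2.20 in SSP-25, 577.6 ± 99.6 in HuH-28 and 413.5 ± 12.8 in RBE. SSP-25 exceeded HuH-28 at an adjusted p of 0.0498, which leaving out 1 library moved to between 0.012 and 0.352, so that step could not be fixed. The step from HuH-28 to RBE passed (adjusted p = 0.0109) and did not pass without the first HuH-28 control siRNA library (0.101), without the first RBE control siRNA library (0.0554) or after quantile normalization (0.0537). The lines also differ in cell markers. HuH-28, with the highest INHBA, BMP4, BMP2, TGFB2, TGFB3 and INHBB, had the highest fibroblast marker sum and the lowest cholangiocyte marker sum with control siRNA, at 2609 to 2691 against 27140 to 28530 in RBE. With 3 lines, these cannot be told apart from any other property of the line.

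Within each ligand class the makeup of the signal also depended on the line. INHBA made up 97.3% of the summed activin subunit signal in HuH-28 and 95.4% in SSP-25 with control siRNA, against 14.1% ± 4.33 in RBE (SD, n = 2), where INHBB was the larger. LKB1 siRNA took the RBE share of INHBA to 33.5% ± 4.45, and the shares in HuH-28 and SSP-25 were 97.5% and 94.9%. Among BMPs, BMP4 made up 77.4% in HuH-28, while BMP6 made up 82.1% in RBE and 61.6% in SSP-25. With LKB1 siRNA BMP4 became the larger in SSP-25, at 53.1% against 44.6% for BMP6. BMP2 went from 11.7% to 21.1% in HuH-28 and from 4.51% to 13.5% in RBE. TGFB2 was the leading TGF-β isoform in HuH-28, at 55.4%, and TGFB1 led in RBE and SSP-25, at 55.8% and 68.7%. In SSP-25 the TGFB2 share went from 27.0% to 40.8% with LKB1 siRNA. These shares were given as description, with no test.

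**Figure D3:**
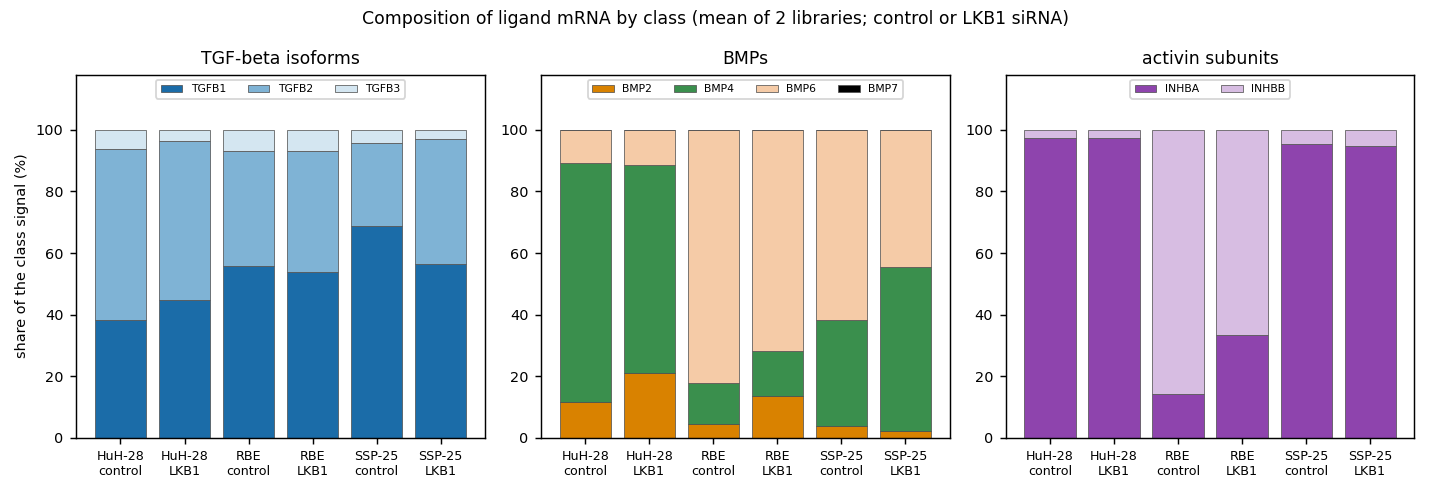
Share of each ligand in the summed signal of its class, in percent on the y axis, for each line and siRNA on the x axis, as the mean of 2 libraries. In the BMP panel BMP4 passes BMP6 in SSP-25 with LKB1 siRNA, and in the activin panel RBE is the line in which INHBB exceeds INHBA.

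The other genes of the pathway were read from 6 lists, for which counts are of genes that passed on average over the lines. The all-gene median log2 fold change was 0.03 and 27.3% of all genes were higher. Of 13 receptors, 5 were higher and 4 lower (median 0.07). The type I receptor TGFBR1 rose by 1.61 on the log2 scale (adjusted p = 8.45e-10) and its type II partner TGFBR2 had -1.0004 (adjusted p = 2.35e-08), and both kept that sign in all 3 lines. The activin type II receptors also moved apart, with 0.63 for ACVR2A and -0.65 for ACVR2B. Of 8 SMADs, 3 were higher and 2 lower (median 0.04), with SMAD2 at 0.92, the inhibitory SMAD6 at 0.32, SMAD3 at -0.33 and the shared partner SMAD4 at -0.30.

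Of 17 tested extracellular antagonists and decoys, 7 were higher and 2 lower (median 0.50). NOG, which binds and blocks BMPs, had a log2 fold change of 1.44, and the activin and GDF11 binders FST and FSTL3 had 1.34 and 0.86. BAMBI had a smaller 0.18 on average, with 0.43 (HuH-28), -0.07 (RBE) and 0.18 (SSP-25). FST had log2 fold changes of 0.10 (HuH-28), 1.503 (RBE) and 2.41 (SSP-25). Its average rise came from the lines with little FST, where control siRNA means were 4.08 (RBE) and 6.20 (SSP-25), against 2317 in HuH-28. With LKB1 siRNA those means were 12.45 in RBE and 33.8 in SSP-25. Of 14 tested genes of latency and activation, 7 were higher and 0 lower (median 0.30), among them LTBP1 (0.94), LTBP3 and LTBP4 (0.62 each), which hold latent TGF-β in the matrix, and ITGB8 (1.60), an integrin subunit that frees it. ITGB8 had 0.34 (HuH-28), 1.45 (RBE) and 3.01 (SSP-25).

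Of 16 immediate target genes, 8 were higher and 5 lower (median 0.15). The TGF-β targets TGFBI and COL1A1, the latter also one of the fibroblast markers above, rose by 0.83 and 0.58 on the log2 scale, while the BMP targets ID1 and ID2 had log2 fold changes of -0.52 and -0.995. Each of these 4 kept its sign in all 3 lines. Of 13 tested further ligands of the superfamily, 6 were higher and 0 lower (median 0.40), or 3 and 2 after quantile normalization. GDF15, a stress-induced ligand, had 2.13 in RBE and -1.06 in SSP-25. GDF5 and GDF6, known from joint and skeletal development, had 0.82 and 1.05 on average, and for GDF6 this came from SSP-25 at 2.94, with 0.22 in HuH-28 and -0.0045 in RBE. The SSP-25 means of GDF6 were 4.41 with control siRNA and 37.0 with LKB1 siRNA. GDF5 had 1.69 in RBE and 0.92 in SSP-25, where its control siRNA means were only 1.07 and 0.87. In HuH-28, where that mean was 27.0, GDF5 had -0.14. BMP8B had 0.46 on average, with 0.25 (HuH-28), 0.21 (RBE) and 0.94 (SSP-25). The SSP-25 means of BMP8B were low, at 0.98 with control siRNA and 2.31 with LKB1 siRNA.

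**Figure D4:**
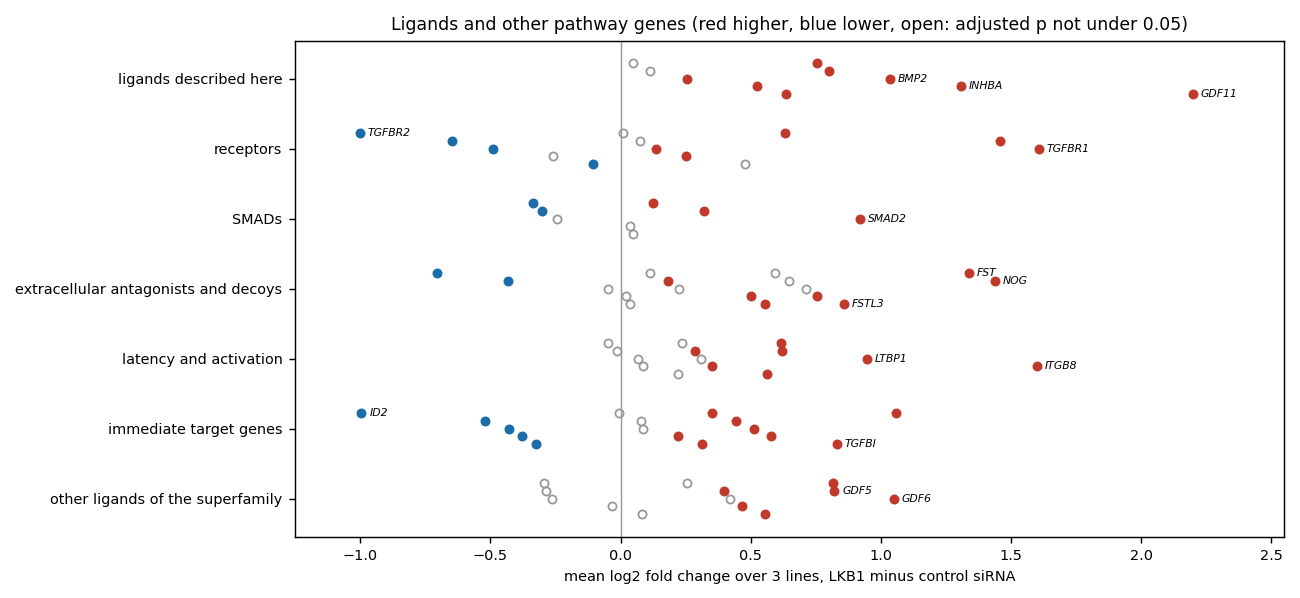
Average log2 fold change over the 3 lines with LKB1 siRNA, on the x axis, for each tested gene of the ligands and the 6 pathway lists, on the y axis. Red and blue points passed as higher or lower at an adjusted p under 0.05, and open points did not pass. No filled point of the 10 ligands or of the latency list lies left of 0, while receptors, SMADs and immediate targets have filled points on both sides.

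The genes most alike in pattern were sought for the 3 ligands that passed with an average log2 fold change above 1, by Pearson r of log2(signal + 0.5) over the 12 libraries. INHBA was closest to MRAS (r = 0.999), MCAM (0.998) and AMPH (0.997). BMP2 was closest to KAZN (0.993), TP53I13 (0.99) and SEZ6L2 (0.989), and GDF11 to ZDHHC20 (0.994), POLD3 and PTPN9 (0.981 each). The 12 libraries share 3 lines, so differences between lines enter r, and the values are descriptive.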

How the data were processed

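The values deposited by the authors are normalized reads per kilobase for each gene, treated as signal, in 12 libraries made with a TruSeq RNA kit. Alignment is described in the paper with NextGENe and RefSeq mRNA, and in the submitters' processing notes with TopHat 1.2.0, hg19 and edgeR. Which made these values is not given in the sources. Of 18815 rows, 28 hold a date in place of a symbol and 17 repeats were removed.

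log2(signal + 0.5) was fitted with limma 3.58.1 in R 4.3.3, with a mean per group of line and siRNA, a trend of variance with mean, and adjustment by Benjamini-Hochberg over 16146 genes that reached a signal of 1 in 2 or more libraries (6 residual degrees of freedom). Of the 10 ligands, all 10 passed this filter. The pseudocount makes fold changes of low genes too small. LKB1 siRNA was compared with control siRNA within lines and as the mean of those contrasts, with F tests of the difference between lines and of control levels, and pairs of lines. Single ligands were also tested by exact permutation (two-sided) of the siRNA labels inside each line. The script was tested on simulated data.

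All ligands were named, with STK11, up to 4 genes per pathway list by smallest average p among those that passed, and the 3 genes most like each ligand whose average log2 fold change passed and exceeded 1. Ligands, lists and words were chosen with earlier results of these data known. Alternatives were other pseudocounts, filters and scaling, no trend, each line alone, a replicate block, and leaving out libraries or lines. Depth and counting error could not be computed.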

Additional observations from a re-analysis of the deposited data

Results flagged for a closer look

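The effect of LKB1 siRNA differed between the 3 lines in 7 ligands by limma's F test of the difference itself, with adjusted p = 0.000137 for TGFB2, 0.000179 for INHBA, 0.000569 for BMP2, 0.000778 for BMP4, 0.00367 for TGFB3, 0.00853 for GDF11 and 0.0174 for INHBB. The same test passed in 28.2% of all genes. GDF11 and TGFB2 rose in each line and differed in size, with log2 fold changes of 1.84 to 2.70 and 0.22 to 1.10. BMP2 rose in HuH-28 and RBE and had 0.06 in SSP-25, whereas BMP4, INHBA and INHBB rose in RBE and SSP-25 and did not pass in HuH-28. TGFB3 had a log2 fold change of -0.50 in HuH-28 and 0.88 in RBE.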

How the results depend on the processing

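Read depth is unknown, each group has 2 libraries, and calls by line rest on a spread shared by all groups. Of 1739 values of single ligands recomputed under the alternatives, 1673 kept their direction and their side of the threshold. Many of them came from leaving out a library outside the comparison. That cannot move a log2 fold change and alters only its p-value, so the agreement is partly fixed in advance. In RBE the count of 8 ligands higher and 0 lower was the same under all 22 alternatives. In HuH-28 it ranged from 3 (each line fitted alone) to 6 higher and from 0 to 1 lower, in SSP-25 from 6 to 7 higher, and on average from 8 to 9 higher, with 1 lower when RBE was left out (TGFB3, -0.27, adjusted p = 0.0297). With each line fitted alone, 2407 instead of 4801 genes passed in HuH-28. After quantile normalization the further ligands had 3 higher and 2 lower on average and 3 higher in SSP-25, SMADs had 1 lower in HuH-28, and signs turned for BMP2 in SSP-25 (-0.17), the SSP-25 minus RBE control differences of BMP6 (-0.064), TGFB2 (-0.019) and TGFB3 (0.059), and the BMP7 average (-0.0088, and -0.10 without RBE). None of these turned values passed in either setting, and the cause was not tested.

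Leaving out 1 library gave ranges that crossed 0 for BMP2 in SSP-25 (-0.0081 to 0.12), the SSP-25 minus RBE control differences of BMP6 (-0.029 to 0.093) and TGFB3 (-0.38 to 0.10), TGFB3 in SSP-25 (-0.074 to 0.0087), and BMP7 in HuH-28 (-0.89 to 0.45), RBE (-0.64 to 1.34), SSP-25 (-0.0054 to 0.027) and on average (-0.28 to 0.38).

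Libraries of the same replicate number did not deviate together in every line (r = 0.22 for HuH-28, 0.02 for RBE and -0.01 for SSP-25), and the paper's first and second test are not said to be shared between groups, so the numbers were not taken to pair them. With the replicate block the ligand counts were 5 higher and 1 lower in HuH-28, 8 and 0 for RBE, 6 and 0 for SSP-25, and 8 and 0 on average. A block within each line gave 7 higher in SSP-25, where TGFB1 also passed (adjusted p = 0.01), and let the difference between lines pass for TGFB1 (0.00308) and the control levels for BMP7.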
